A study of Mus musculus with 24 samples.

Results

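The oligoadenylate synthetase (Oas) family was examined in 7 mouse tumour cell lines. Its 9 listed genes, Oas1a, Oas1b, Oas1c, Oas1f, Oas1g, Oas2, Oas3, Oasl1 and Oasl2, were taken by family name, and the family itself was chosen by measured values of these same arrays, on which Oas1f stood higher in the melanoma line DB#2 than in the melanoma line D. The levels of the members are therefore a description, and no test is given for them. Probes were assigned through their RefSeq accession, and 8 of the 9 genes had at least 1 probe, with 11 probes among the 32917 probes that could be named. No probe was matched to Oas1b, which is not analysed here. Some probes carry accessions that the RefSeq table used does not list, and whether any of them reads Oas1b was not settled.

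Oligoadenylate synthetases bind double-stranded RNA, the usual sign of a virus in the cytosol, and join ATP into short 2′-5′-linked oligoadenylates. These act as a second messenger that leads to the breakdown of cellular and viral RNA. The genes are textbook targets of interferon: a sensor such as RIG-I (Ddx58) induces interferon, the receptor signals through a complex that holds Stat2 and Irf9, and this complex switches on the synthetases with many other effectors. In the mouse the Oas1 gene has been duplicated many times, and Oas1a and Oas1g encode active synthetases. Oas2 and Oas3 carry tandem copies of the synthetase unit. Oasl1 has no synthetase activity and restrains the translation of Irf7, while Oasl2 is an active synthetase with ubiquitin-like repeats.

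Total RNA of the lines was hybridised to 24 single-colour Agilent arrays. The 5 melanoma lines were all derivatives of B16F1, a mouse melanoma line, and all carried green fluorescent protein. They were the parental line B16F1-GFP-M (M, 3 arrays), B16F1-GFP-D (D, 4 arrays), recovered by the authors after long dormancy in mice, and B16F1-GFP-DB#1 (4 arrays), B16F1-GFP-DB#2 (3 arrays) and B16F1-GFP-DB#3 (3 arrays), a later generation of dormant cells from a brain site. The 2 myeloid lines are labelled M0 (4 arrays) and J365 (3 arrays), with the mark p20, which the labels do not explain, and their leukemia of origin cannot be read from the labels. The dormant cells had been isolated from syngeneic mice under immunotherapy and amplified in culture, so every array shows cells grown outside the animal, with no treatment named. Whether a line is 1 clone is not given in the sources used here, nor is whether arrays of a line came from separate cultures, so that p-values measure only the spread between these arrays. The comparisons asked how each dormant line differed from M, how DB#2 differed from D, and how the myeloid lines differed from each other and from M.

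Every array value below is a normalized log2 signal, the log2 intensity less the 75th percentile of its array, from the brightest probe of the gene. Values are compared between lines and never between genes, since probes differ in brightness. The arrays lay on 3 slides of 8, each with every line. The share of spots well above background, a mark set by the scanner software, was 46.0% to 55.8% on all arrays except D replicate 3, where it was 90.4%. Dim probes stood high on that array, so several member differences and the pathway counts for D are given with and without it. Most differences of single pathway genes in D are given with it only. Marker genes followed the labels. The mean signal of 14 melanin synthesis genes was 5.19 to 6.39 on melanoma arrays and -4.37 to -3.49 on myeloid arrays, and that of 13 blood genes was -4.04 to -1.63 and 0.77 to 1.39 (the top melanoma value came from D replicate 3).

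The members lie in 2 clusters on chromosome 5. In RefSeq assembly GRCm38.p6 the order is Oasl2 (114896926 to 114912245) and Oasl1 (114923143 to 114937911), then, several megabases on, Oas2 (120730333 to 120749886), Oas3 (120753098 to 120777684), Oas1c (120800194 to 120812540), Oas1b (120812635 to 120824163), Oas1f (120847367 to 120857986), Oas1g (120876142 to 120887613) and Oas1a (120896256 to 120907544). RefSeq promoter windows of 300 bases, from 250 before to 50 after a transcript start, were at hand for 7 members. They were searched on both strands for the core of the interferon-stimulated response element, GAAA followed by any 2 bases and GAAA. It was found in 4 of the 7 windows (Oas1a, Oas1c, Oas1g and Oas3) and in 3.44% of all 32851 promoter windows. The 3 windows without it were those of Oas1f, Oasl1 and Oasl2. The STAT motif TTCNNNGAA was found in 1 of the 7 (Oas1a) and in 8.3% of all windows. A match describes letters in a window and is no evidence of binding.

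The sequences below show the 4 windows with a match to this core beside that of Oas1f, in which no match was found. They are given 5′ to 3′ on the strand of the gene, from GRCm38.p6 (RefSeq), with the matched bases in capitals. The whole window is printed for Oas1a (chr5:120907476-120907775, minus strand) and for Oas1f (chr5:120847117-120847416, plus strand), whose levels followed each other most closely. Of this pair only the Oas1a window holds a match, and whether the core regulates either gene was not tested. For Oas1g (chr5:120887574-120887673), Oas1c (chr5:120812571-120812670) and Oas3 (chr5:120777680-120777779), all on the minus strand, 100 bases around the match are printed.
Oas1a: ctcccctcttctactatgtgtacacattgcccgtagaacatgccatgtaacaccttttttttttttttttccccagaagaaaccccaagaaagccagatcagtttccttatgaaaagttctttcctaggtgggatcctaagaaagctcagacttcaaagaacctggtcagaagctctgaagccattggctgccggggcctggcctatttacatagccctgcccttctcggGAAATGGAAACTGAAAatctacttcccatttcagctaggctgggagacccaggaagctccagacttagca
Oas1g: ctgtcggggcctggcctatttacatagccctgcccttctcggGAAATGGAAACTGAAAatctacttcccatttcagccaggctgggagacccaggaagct
Oas1c: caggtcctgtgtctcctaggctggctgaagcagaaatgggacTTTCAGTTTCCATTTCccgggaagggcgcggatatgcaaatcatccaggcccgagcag
Oas3: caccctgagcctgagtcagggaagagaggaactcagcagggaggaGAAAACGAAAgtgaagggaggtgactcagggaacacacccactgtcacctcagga
Oas1f: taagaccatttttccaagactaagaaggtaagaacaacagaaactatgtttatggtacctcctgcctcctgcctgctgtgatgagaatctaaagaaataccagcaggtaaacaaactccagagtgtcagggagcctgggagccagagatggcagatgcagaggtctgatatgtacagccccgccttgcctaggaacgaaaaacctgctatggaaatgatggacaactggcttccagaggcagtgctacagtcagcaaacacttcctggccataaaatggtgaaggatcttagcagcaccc

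Oas1a and Oas1g shared an unbroken run of 73 bases that spans the element. Each of these windows held 2 overlapping matches, at -20 to -5 from the start in Oas1a and at -18 to -3 in Oas1g. Oas1c held the same pair of matches on the opposite strand, at -114 to -99, and its longest run shared with Oas1a was 19 bases as a reverse complement. The printed Oas1c stretch overlaps the annotated Oas1b gene. In Oas3 there was 1 match, at -75 to -66.

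Among the Oas1 genes, Oas1a gave the clearest order of lines. Its signal was 2.43, 2.72 and 2.95 in M, and 1.76, 0.54, -0.04 and 0.37 in D. It was 1.86, 1.56, 2.00 and 1.79 in DB#1, 3.96, 4.19 and 4.43 in DB#2, and 1.20, 1.31 and 1.37 in DB#3. All DB#2 arrays lay above all M arrays, and all D, DB#1 and DB#3 arrays below them. In the myeloid lines it was 3.86, 3.59, 3.29 and 3.75 in M0 and 4.05, 4.25 and 4.48 in J365. By line mean the order was J365 (4.26), DB#2 (4.19), M0 (3.62), M (2.70), DB#1 (1.80), DB#3 (1.29) and D (0.66). Of the neighbours in that order J365 and DB#2 overlapped, as did DB#3 and D, and the others did not. Oas1a was 2.81-fold higher in DB#2 than in M, a log2 difference of 1.49 ± 0.30 (SE), and 4.12-fold lower in D than in M, a log2 difference of -2.04 ± 0.28 (SE), or -1.81 without D replicate 3.

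Oas1f followed it closely. Its signal was 1.54, 1.73 and 1.34 in M, 0.04, -1.19, -0.81 and -0.52 in D, and 2.99, 2.43 and 3.43 in DB#2. DB#1 (0.73 ± 0.25, SD, n = 4) and DB#3 (0.34 ± 0.24, SD, n = 3) lay between D and M. The myeloid means were 2.60 ± 0.30 (SD, n = 4) in M0 and 3.20 ± 0.49 (SD, n = 3) in J365, and both lines overlapped DB#2. DB#2 exceeded D by 3.57 ± 0.28 (SE) on the log2 scale, an 11.9-fold difference that was the widest of any member between melanoma lines. This is the value that brought the family to attention. Over the 17 melanoma arrays Pearson's r between Oas1f and Oas1a was 0.956, and 0.996 once the mean of each slide was taken off. These arrays share slides and lines, and r is a description.

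Oas1c had the same order among the melanoma lines at its brighter probe. Its signal was -2.03, -1.73 and -1.48 in M, and -0.87, -0.21 and -0.25 in DB#2. In D it was -2.82, -3.23, -2.69 and -3.45, and DB#1 (-2.85 ± 0.23, SD, n = 4), DB#3 (-2.95 ± 0.31, SD, n = 3) and D overlapped. D minus M was -1.30 ± 0.22 (SE), and -1.42 without D replicate 3. Unlike Oas1a and Oas1f, it stood far higher in both myeloid lines than in any melanoma line, at 1.58 ± 0.24 (SD, n = 4) in M0 and 1.56 ± 0.12 (SD, n = 3) in J365. A second, dimmer probe was well above background on 2 of the 17 melanoma arrays, on none of them in M, and so gives no second measure of the difference between M and M0, which was -3.33 at the brighter probe.

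Oas1g, the other active Oas1 synthetase, was at -2.70, -2.54 and -2.46 in M and at -1.31, -1.48 and -1.28 in DB#2, with no overlap. DB#1 was at -3.56 ± 0.12 (SD, n = 4) and DB#3 at -4.12 ± 0.21 (SD, n = 3, with 2 of 3 arrays well above background), both below M without overlap. In D it was -4.74, -5.27 and -4.34 on 3 arrays, none well above background, and -1.64 on D replicate 3. The difference D minus M was -1.43 with that array, and without it no D array measured the gene. J365 (-0.76 ± 0.25, SD, n = 3) lay above M0 (-1.73 ± 0.34, SD, n = 4) without overlap. Whether Oas1a and Oas1g, whose promoters share a long run, also share signal through their probes was not tested, since the probe sequences were not analysed here.

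**Figure D1:**
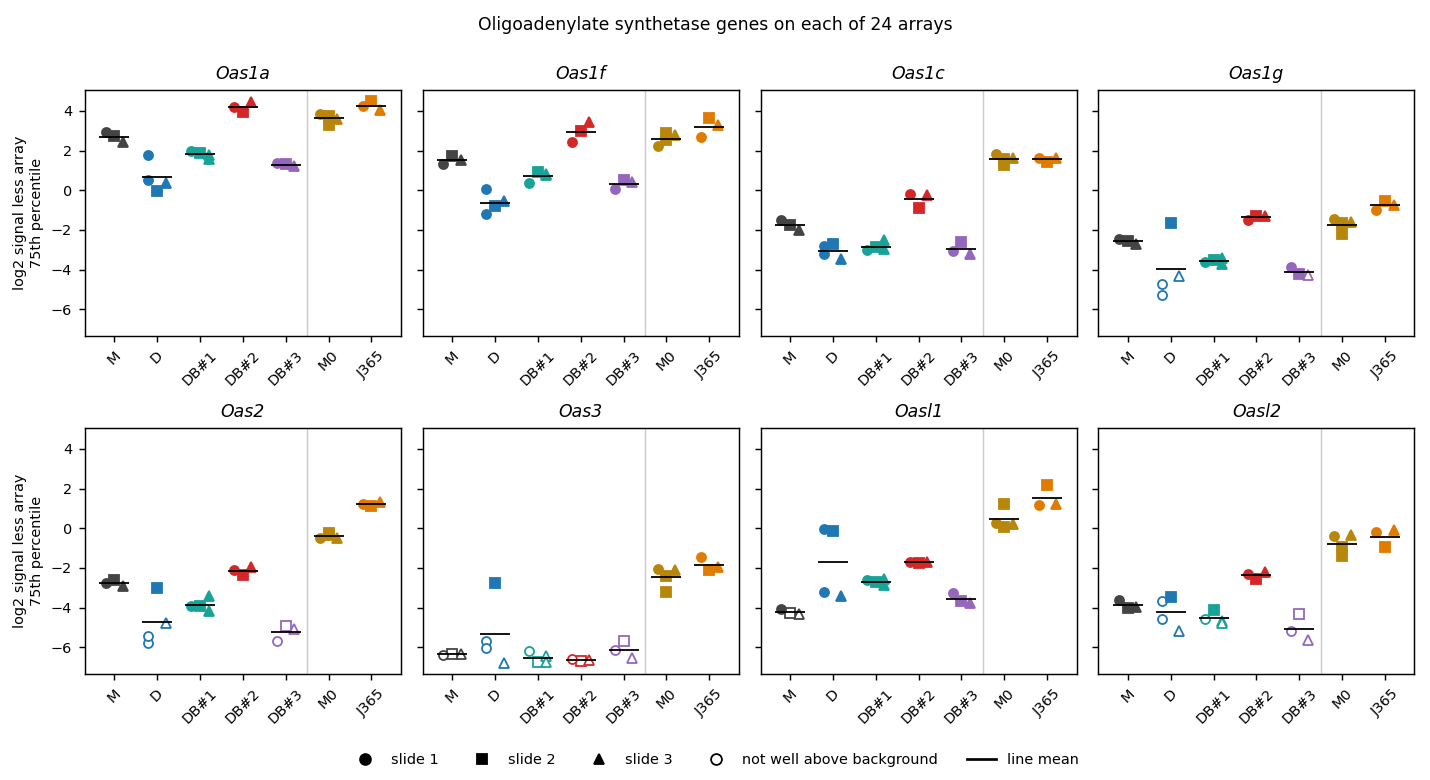
Normalized log2 signal (vertical axis, log2 intensity less the array's 75th percentile) of the 8 measured Oas genes on each of 24 arrays, by line (horizontal axis). Each point is 1 array, its shape gives the slide, open points were not well above background, and bars are line means. In 7 panels DB#2 lies above M, and in the Oas3 panel all melanoma arrays but D replicate 3 are at background.

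The longer synthetases were also higher in the myeloid lines. Oas2 was at -2.91, -2.61 and -2.75 in M, -2.36, -2.11 and -1.96 in DB#2, and -3.87 ± 0.32 (SD, n = 4) in DB#1. In DB#3 it was not well above background on any array, and it was at least 2.89-fold lower there than in M. In D it was -5.81, -5.42 and -4.76 on 3 arrays at background and -3.01 on D replicate 3. Myeloid levels were higher, at -0.39 ± 0.11 (SD, n = 4) in M0 and 1.23 ± 0.12 (SD, n = 3) in J365, and J365 exceeded M0 by 1.61 ± 0.41 (SE) on the log2 scale, or 3.06-fold. That was the widest J365 to M0 difference in the family. A second Oas2 probe was at background on every array except D replicate 3. Oas3 was at background on all melanoma arrays except D replicate 3 (-2.76), and reached -2.45 ± 0.54 (SD, n = 4) in M0 and -1.85 ± 0.36 (SD, n = 3) in J365. It was at least 3.595-fold lower in M than in M0.

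Oasl1, the Irf7 repressor, departed from the rest of the family. In M its signal was -4.34, -4.26 and -4.07, with 1 of 3 arrays well above background, and every other melanoma line lay above M without overlap. DB#1 was at -2.69 ± 0.14 (SD, n = 4), DB#2 at -1.71 ± 0.02 (SD, n = 3) and DB#3 at -3.56 ± 0.28 (SD, n = 3). The D arrays divided, with -0.02 and -0.16 on replicates 1 and 3 and -3.24 and -3.44 on replicates 2 and 4. Replicate 1 was the array with the lowest share of spots well above background, and replicate 3 the one with the highest. The difference D minus M was 2.51, and 1.99 without D replicate 3. This order rests on the brighter probe. The second Oasl1 probe gave 0.78 for D minus M, 0.17 for DB#1, 0.58 for DB#2 and -0.06 for DB#3, where the brighter probe gave 2.51, 1.53, 2.52 and 0.66. On it M was at -4.47, -4.58 and -3.97 and DB#3 at -4.57, -4.85 and -3.76, which overlap. In the myeloid lines Oasl1 was at 0.45 ± 0.54 (SD, n = 4) in M0 and 1.53 ± 0.58 (SD, n = 3) in J365.

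Oasl2 was again highest among melanoma lines in DB#2, at -2.58, -2.30 and -2.23, against -3.96, -4.02 and -3.61 in M. It was at background on all DB#3 arrays and at least 1.31-fold lower there than in M. In D and DB#1 only 1 of 4 arrays each was well above background. M0 (-0.78 ± 0.51, SD, n = 4) and J365 (-0.42 ± 0.48, SD, n = 3) overlapped each other and lay above every melanoma array.

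Counted by line, 7 of the 8 measured members were well above background on every array of M or DB#2 and could be compared with M. The comparisons with M share its 3 arrays. In DB#2 all 7 lay above M without overlap, where 12.6% of all genes tested did so. The median difference of the members was 1.41, against 0.02 for all genes tested. In DB#3, 6 of 7 lay below M (8.44% of all genes) and Oasl1 above it (12.5%), with a median of -1.204. In DB#1, 6 of 7 lay below M (7.86% of all genes) and Oasl1 above it (12.1%), with a median of -0.90. In D, 4 of 7 lay below M (4.58% of all genes) and Oasl1 above it (3.86%), with a median of -1.43. That median is the difference of Oas1g, which only D replicate 3 measured in D. Members not well above background on every array of both lines entered through the brighter line alone, which bears on their direction in these counts. These were Oasl1 in every comparison, Oas1g and Oas2 in D and DB#3, and Oasl2 in D, DB#1 and DB#3. For this reason, and because these arrays chose the family, nothing is read from the counts or shares.

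DB#2 lay above D without overlap in 6 of the 7 members (7.47% of all genes), Oasl1 being the exception with a difference of 0.01 ± 0.61 (SE). Of the 6, Oas1g, Oas2 and Oasl2 were well above background in D on replicate 3 alone. They entered through DB#2, where they stood high, so their place in this count is no separate result. The median difference was 2.61. It is the difference of Oas2, which only D replicate 3 measured in D, so that no median is given without that array. Without it Oas1a differed by 3.30, Oas1f by 3.51 and Oas1c by 2.72. In the myeloid pair 3 of 8 members, Oas1a, Oas1g and Oas2, lay above M0 in J365 (5.42% of all genes). The median was 0.62, and Oas1c differed by -0.02 ± 0.22 (SE). Against M0, all 8 members were lower in M without overlap (30.8% of all genes), with a median of -2.73. The smallest difference was that of Oas1g (-0.84). Oasl1 was measured on 1 of 3 M arrays and Oas3 on none, so the widest cannot be named. Marker lists of other cells were read on the same arrays. The mean signal of 4 fibroblast genes was -5.15 to -4.71 in M, with 1 to 2 of the 4 well above background, and -4.35 to -4.06 in DB#2, with 2 of 4. That of 8 macrophage and microglia genes was -4.19 to -3.88 in M and -4.48 to -3.82 in DB#2. The mean of 6 glia and neuron genes was -5.10 to -4.66 in M and -5.42 to -5.19 in DB#2. For 4 endothelial genes the mean was -5.70 to -5.45 in M and -5.87 to -5.83 in DB#2. The fibroblast mean was -5.323 to -4.042 in D, -5.123 to -4.005 in DB#1 and -5.421 to -5.187 in DB#3. The part of the fibroblast signal in the DB#2 values was not tested. These RNA measurements are of whole cultures, so fewer expressing cells and less RNA per cell cannot be told apart.

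**Figure D2:**
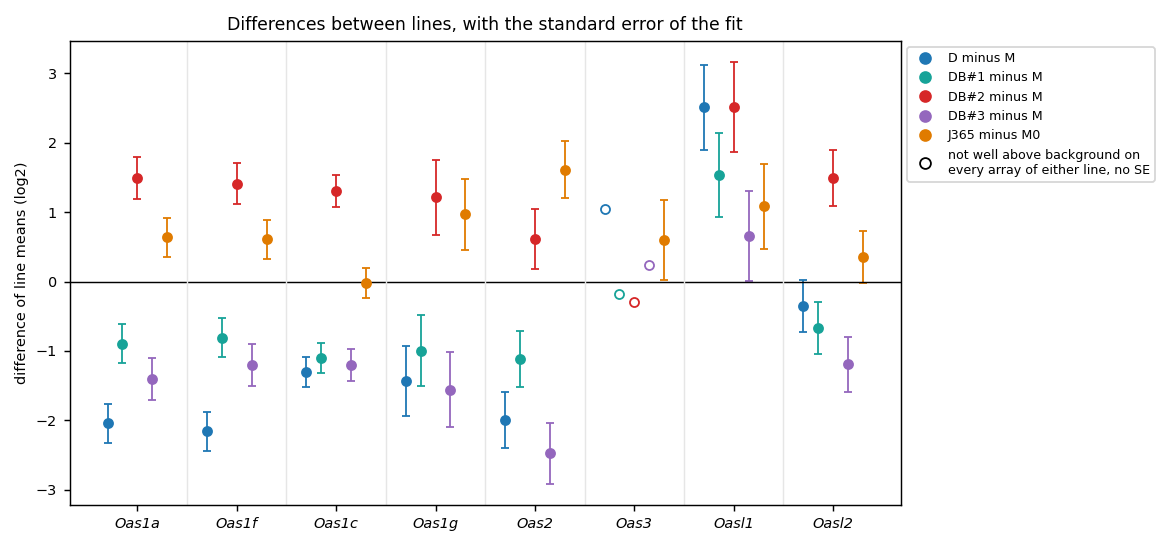
Difference of line means on the log2 scale (vertical axis) for each measured Oas gene (horizontal axis) in 5 comparisons, with the standard error of the fit over all arrays as bars; open points had no line well above background on every array. DB#2 minus M is above 0 for the 7 members compared, among those 7 D, DB#1 and DB#3 minus M are below 0 except for Oasl1, and J365 minus M0 is widest for Oas2.

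The values within each slide are given for the brightest members. Within slides 1, 2 and 3, Oas1a differed between DB#2 and M by 1.24, 1.25 and 1.99, and between D and M by -1.80, -2.76 and -2.06. For Oas1f the DB#2 values were 1.08, 1.26 and 1.89 and the D values -1.92, -2.54 and -2.07. All 7 members were higher in DB#2 than in M on each slide. For D minus M, Oas1g (-2.54, 0.91 and -1.64) and Oasl2 (-0.50, 0.57 and -1.24) turned positive on slide 2, the slide of D replicate 3. The Oas2 values were -2.87, -0.40 and -1.85.

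The genes on either side of the clusters were tested in the same fit. The 10 nearest genes with a probe on each side were taken from RefSeq gene order, 20 per cluster. Around Oas1 to Oas3, 14 to 15 of the 20 were tested and 0 were called (limma, adjusted p under 0.05) in any comparison between melanoma lines, with 0 to 2 per comparison at an unadjusted p under 0.05. Around Oasl1 and Oasl2, 16 were tested and 0 were called in these comparisons, with 0 to 3 at an unadjusted p under 0.05, of which DB#2 against D had 3. One of those was Unc119b, with a difference of 0.51 (adjusted p 0.0547), named here after its value was seen. Of all genes tested, 1.15% to 3.9% were called in each direction between melanoma lines, so 0 calls in so few genes is no result about the neighbours. Between M and M0, 7 of 15 and 10 of 16 neighbours were called, where 27.7% of all genes were called higher and 30.8% lower. The median neighbour difference between DB#2 and D was 0.20 around Oas1 to Oas3 and 0.22 around Oasl1 and Oasl2, against 0.03 for all genes tested. The members are not set against the neighbours, since the family was chosen by the Oas1f value of this same comparison. The relatives inside the larger cluster, Oas1e and Oas1h, which are no members, were not well above background on every array of any melanoma line. Oas1d spread over more than 3 log2 units within M, D, DB#1, DB#2 and DB#3. This spread followed the slides, since in each of these lines the arrays on slide 1 were the lowest.

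**Figure D3:**
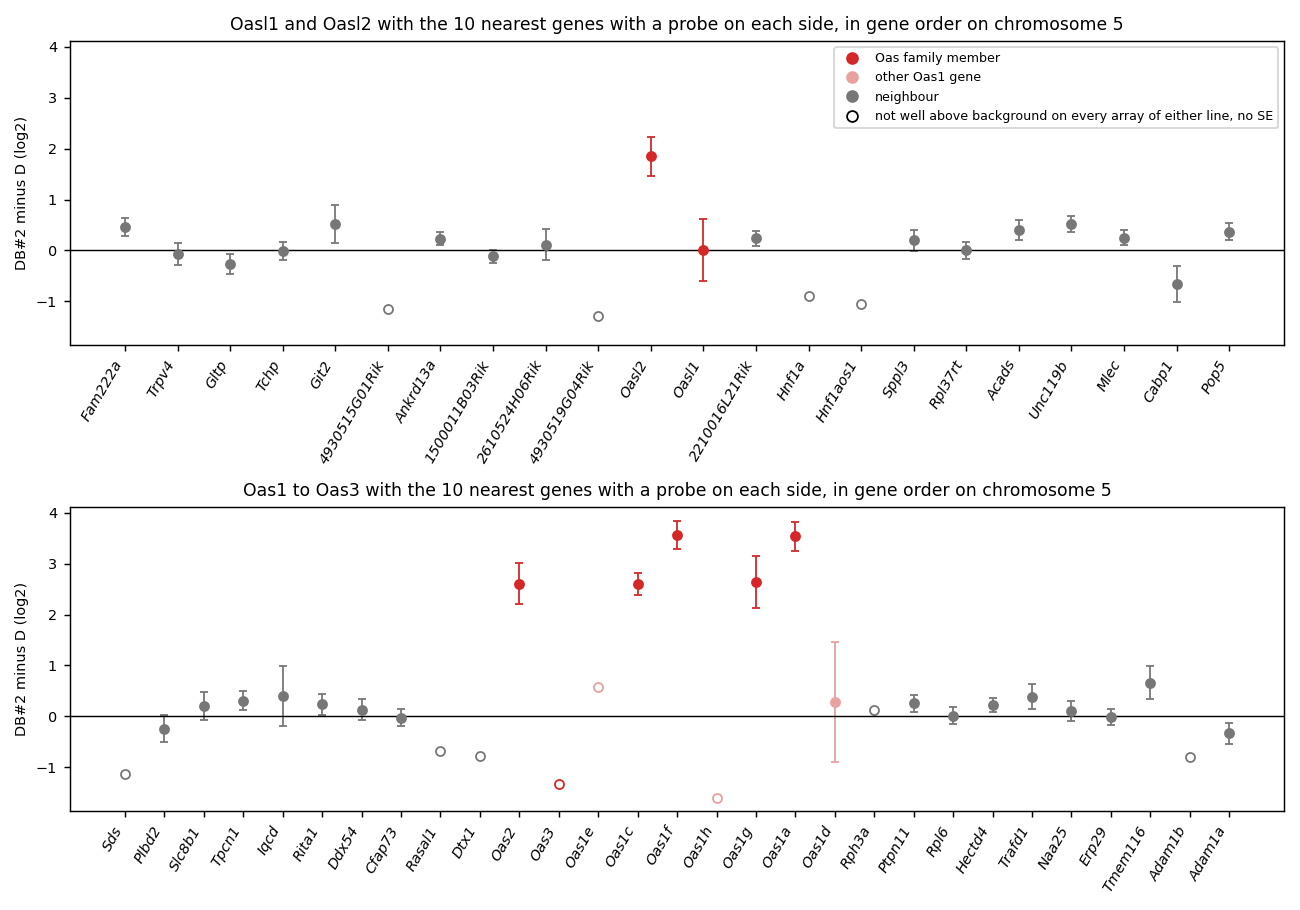
Difference DB#2 minus D on the log2 scale (vertical axis) for Oas genes and the 10 nearest genes with a probe on each side, in gene order on chromosome 5 (horizontal axis, not to distance), with standard errors of the fit as bars; open points had no line well above background on every array. Neighbours that were tested lie between -0.66 and 0.66, and 6 Oas members between 1.85 and 3.57. The family was chosen by the Oas1f value of this comparison, so the contrast is no test.

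The pathway around the synthetases was described with 58 genes that had a probe, in 5 groups: the 2-5A effectors, sensors of nucleic acid, interferons and their receptors, interferon signalling, and other interferon-stimulated effectors. These genes were tested in the fit across all genes (limma, Benjamini-Hochberg), with members of the family left out. The group of 2-5A effectors includes Abce1, a ribosome recycling factor, and the 2-5A-degrading enzymes Pde12 and Akap7. In it 0 of 4 genes were called in any comparison between melanoma lines or in J365 against M0. Of all genes tested, 1.15% to 3.9% were called in each direction between melanoma lines, and 0.721% were called higher in J365. At such shares 0 of 4 is no result about these genes. At an unadjusted p under 0.05, 0 of the 4 passed between melanoma lines and 1, Abce1 (0.58 ± 0.18, SE, adjusted p 0.175), in J365 against M0. Abce1 differed by 0.03 ± 0.18 (SE, adjusted p 0.972) between DB#2 and D.

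In DB#2 against M, 9 of 51 tested pathway genes rose (2.15% of all genes did). The widest differences were those of Rtp4 (2.26 ± 0.28, SE, adjusted p 1.9e-05), an interferon-induced regulator of receptor trafficking, and Usp18 (2.11 ± 0.28, SE, adjusted p 4.2e-05), the protease that removes Isg15 and brakes the interferon receptor. Irf7, which amplifies type I interferon, rose by 1.81 ± 0.26 (SE), and Igtp, an immunity-related GTPase, by 1.78 ± 0.28 (SE). The RNA sensor Ddx58 rose by 1.68 ± 0.24 (SE) and Irf9, the DNA-binding partner of Stat2, by 1.26 ± 0.19 (SE), with adjusted p of at most 0.00027 for these 4. Dhx58, Gbp3 and Ifit3 were the others, and of 16 alternatives their calls held in 16, 11 and 8. Stat2 (0.28 ± 0.24, adjusted p 0.826), Ifih1 (0.86 ± 0.33, adjusted p 0.239), Isg15 (0.81 ± 0.40, adjusted p 0.44) and the double-stranded RNA kinase Eif2ak2 (-0.03 ± 0.18, adjusted p 0.999) did not pass the test.

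In D against M, 10 of 51 pathway genes fell (1.58% of all genes did) and 1 rose (1.38%). Those that fell the most were Igtp (-1.78 ± 0.26, SE, adjusted p 0.000183, with 2 of 4 D arrays well above background), Xaf1 (-1.56 ± 0.38, SE, adjusted p 0.0228), Parp14 (-1.29 ± 0.21, SE, adjusted p 0.000675) and Usp18 (-1.29 ± 0.26, SE, adjusted p 0.00591). Ddx58 (-1.19), Irf7 (-1.05), Stat2 (-1.02) and Irf9 (-0.77) fell as well. Of 16 alternatives the call held in 15 for Ddx58, 12 for Stat2, 11 for Irf9, 7 for Xaf1 and 6 for Irf7. Irf7 was at -0.88 (adjusted p 0.0549) without D replicate 3, and with the mean of all probes Irf7 was at -0.46 (adjusted p 0.731) and Stat2 at -0.30 (adjusted p 0.916). Cgas, the cytosolic DNA sensor, rose by 0.67 ± 0.18 (SE, adjusted p 0.0467), a call that held in 5 of 16 alternatives. Ifih1 (-0.64 ± 0.31, adjusted p 0.441), Isg15 (-0.74 ± 0.37, adjusted p 0.469) and Eif2ak2 (-0.35 ± 0.17, adjusted p 0.414) did not pass. Second probes of Irf7, Stat2 and Xaf1, dim on most arrays, gave 0.12, 0.42 and -0.07. The count was 19 with slide as a block, 1 with only the arrays of D and M in the fit, and 6, 4 and 7 without M replicate 2, M replicate 3 and D replicate 4. Without D replicate 3 it was 11.

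In DB#3 against M, 11 of 51 pathway genes fell (1.15% of all genes did). Igtp was at background in DB#3 and at least 5.14-fold lower than in M (adjusted p 6.5e-06). Usp18 fell by 2.14 ± 0.28 (SE, adjusted p 3.9e-05), Xaf1 by 1.89 ± 0.40 (SE, adjusted p 0.00818) and Rtp4 by 1.62 ± 0.28 (SE, adjusted p 0.00101). Ddx58, Irf7, Stat2 and Irf9 fell here too. Of 16 alternatives the call held in 16 for Ddx58, 13 for Irf7, 13 for Irf9, 9 for Stat2 and 9 for Xaf1. Irf7 was not called with quantile scaling (adjusted p 0.21), the replicate block (adjusted p 0.0919) or the mean of all probes (adjusted p 0.0773). A second, dim Xaf1 probe gave 0.08. The count was 7 without M replicate 3, 7 without DB#3 replicate 3 and 6 with only the arrays of the 2 lines. In DB#1 against M, 7 of 51 fell (1.65% of all genes did), led by Xaf1 (-1.60 ± 0.38, SE, adjusted p 0.0152), Igtp (-1.29 ± 0.26, SE, adjusted p 0.00366), Ddx58 (-1.14 ± 0.22, SE, adjusted p 0.00317) and Parp14 (-1.14 ± 0.21, SE, adjusted p 0.00174). The Xaf1 call held in 13 of 17 alternatives. With the mean of all probes Xaf1 was at -0.85 (adjusted p 0.115), and its second probe, at background on all these arrays, gave -0.09. Irf7 (-0.20 ± 0.25, adjusted p 0.909) and Usp18 (-0.88 ± 0.26, adjusted p 0.0695) did not pass there. The DB#1 count was 6 with the replicate block, where Irgm1 lost its call (adjusted p 0.0942), 16 with slide as a block, 3 without M replicate 2 or M replicate 3, and 4 without DB#1 replicate 1.

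Among the comparisons of melanoma lines DB#2 against D held the most pathway calls, with 23 of 51 pathway genes higher (3.9% of all genes) and 1, Cgas, lower (2.44%). Igtp rose by 3.56 ± 0.26 (SE, adjusted p 1.06e-08), Usp18 by 3.40 ± 0.26 (SE, adjusted p 2.66e-08), Xaf1 by 2.88 ± 0.38 (SE, adjusted p 3.19e-05) and Ddx58 by 2.88 ± 0.22 (SE, adjusted p 3.36e-08). The signalling genes Irf7 (2.85), Irf9 (2.03) and Stat2 (1.30) and the ubiquitin-like effector Isg15 (1.55) passed as well. The second, dim Stat2 probe gave -0.53. Ifih1 rose by 1.49 ± 0.31 (SE). Cgas was lower by 0.75 ± 0.18 (SE, adjusted p 0.0127). Of the group of other interferon-stimulated effectors 13 of 20 tested rose, of signalling genes 5 of 12, of sensors 3 of 10, of receptors 2 of 5, and of 2-5A effectors 0 of 4. When the fit held no other lines, 9 genes were called, all higher in DB#2, and without D replicate 3 the count was 26. Cgas was called in 11 of 16 alternatives, and with the mean of all probes Stat2 was at 0.39 (adjusted p 0.802).

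**Figure D4:**
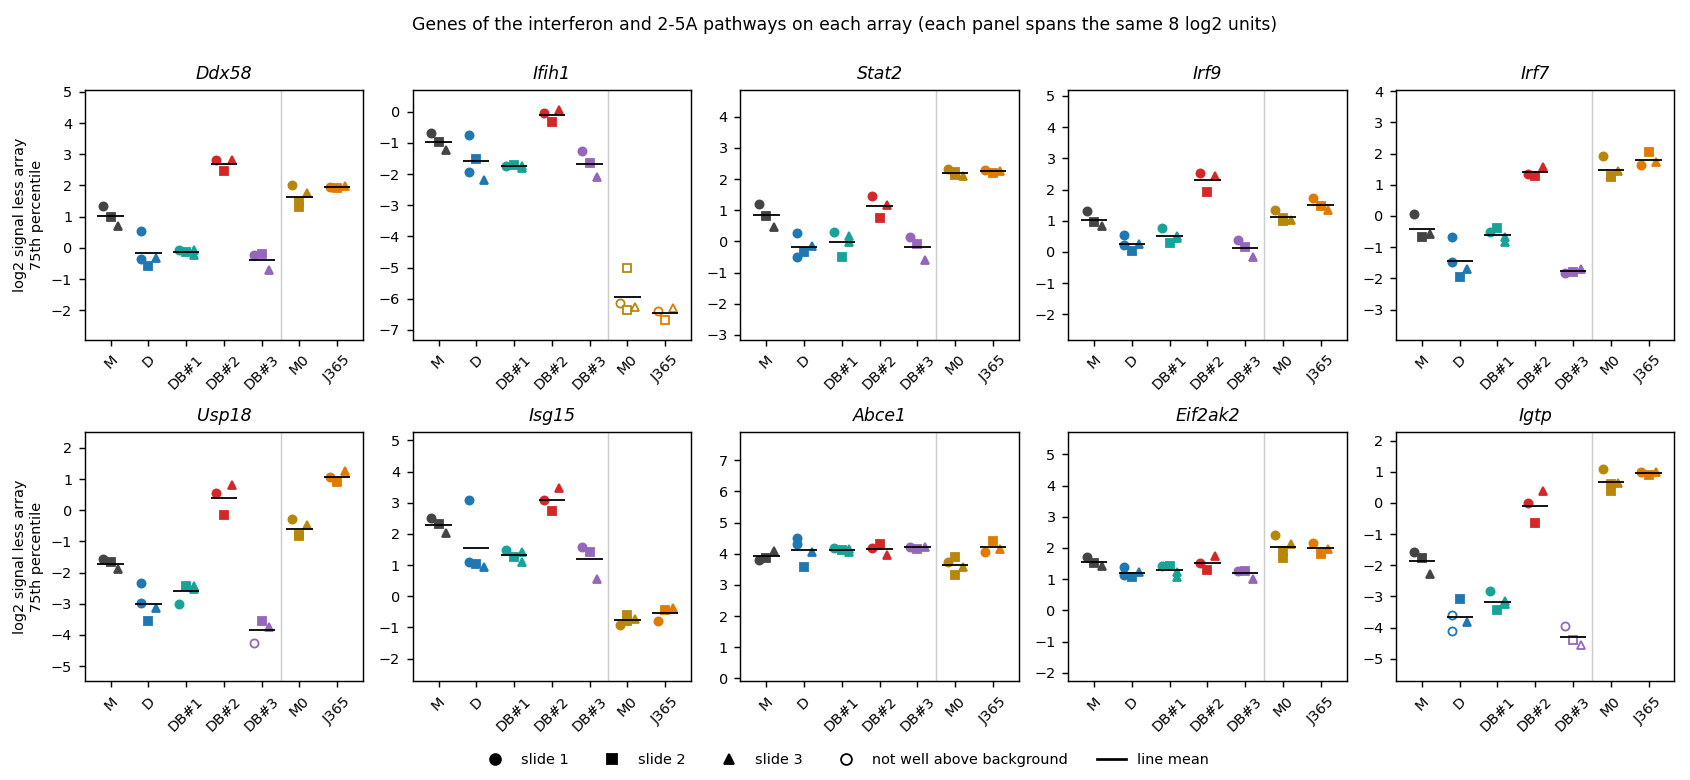
Normalized log2 signal (vertical axis) of 10 genes of the interferon and 2-5A pathways on each array, by line (horizontal axis); points are arrays, shapes slides, open points not well above background, bars line means, and each panel spans the same number of log2 units. Ddx58, Irf9, Irf7, Usp18 and Igtp have means above M in DB#2 and below M in D and DB#3, while Abce1 and Eif2ak2 stay within a narrow range in the melanoma lines.

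In the myeloid pair 1 of 42 tested pathway genes rose in J365 (0.721% of all genes did). It was Usp18, by 1.68 ± 0.26 (SE, adjusted p 0.000567). Stat2 (0.07 ± 0.23), Irf7 (0.32 ± 0.25), Irf9 (0.40 ± 0.18) and Ddx58 (0.31 ± 0.23) had adjusted p of at least 0.531. The count was 3 with slide as a block. Between M and M0, lines of different tissue, 20 of 53 pathway genes were higher in M (27.7% of all genes) and 19 lower (30.8%). Psmb8, an immunoproteasome subunit, was at least 401-fold lower in M, where it was at background, and Psmb9 (-8.69 ± 0.38, SE), Socs1 (-5.19 ± 0.23, SE) and the peptide transporter Tap1 (-4.72 ± 0.28, SE) followed. Gbp2, Rsad2, Ifit3 and Rtp4 were at background in M0 and at least 14.7-fold, 12.5-fold, 9.25-fold and 9.85-fold higher in M. Ifih1, the sensor MDA5, was at least 8.75-fold higher in M. Akap7 is not given a direction, since its 3 probes ran from -3.66 to 4.70.

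Genes whose levels ran most like Oas1f over the 17 melanoma arrays were ranked by Pearson's r among 13230 named genes, as a description. The closest were Padi2 (0.969), a peptidylarginine deiminase, Oas1a (0.956), Parp12 (0.952), an interferon-induced ADP-ribosyltransferase, Stx2 (0.945), Hgsnat (0.930), Nudt2 (0.928), Plagl1 (0.928) and Nedd1 (0.923). With slide means taken off r was 0.924 to 0.996 for these 8. Oas1c ranked 24, Irf7 26 and Ddx58 31. Between members, r was 0.890 for Oas1c with Oas1f, 0.927 for Oas1g with Oas2, and -0.002 for Oas1f with Oasl1.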

How the data were processed

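Per the labels and the study's methods, cyanine 3-labelled RNA of 7 lines was hybridised to Agilent arrays and read with Agilent Feature Extraction 10.7.3.1. The authors deposited 1 table per array, with a background-corrected intensity per spot on a linear scale, not scaled between arrays. Their series table held the same intensity values (1511424 of 1511424 equal). The authors' filtering and test in GeneSpring were not used. No 2 arrays were identical (0 pairs).

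From 56605 probes, 117 with outlier spots were left out and spots of a probe were averaged. Accessions were matched without version to a RefSeq table of GRCm38.p6 (the array design is mm9), giving 22881 symbols. The log2 intensity less the array's 75th percentile was fitted with limma 3.58.1 (R 4.3.3; lmFit, eBayes) over all 24 arrays with a term per line. A gene entered a test when 1 or both lines had it well above background throughout, and called at a Benjamini-Hochberg adjusted p under 0.05 over all genes tested. The steps were tested on simulated data. The bound "at least N-fold" divides the mean of the brighter line by a floor for the dimmer one, averaged over its arrays, which is the probe's own signal or, if higher, the array's lowest signal well above background. The members and lists were chosen with earlier results of these data known, as were the tests. Named pathway genes were 11 set ones and up to 4 called genes in each direction with the largest difference per comparison. Mx1 and Mx2 were not matched to a probe. Some named genes are not reported here.

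Alternatives were normexp background correction (offset 50, on the median spot signal because the tables hold no mean signal), quantile scaling, the 75th percentile over detected probes, no scaling, no filter, only the arrays of the 2 lines, slide or replicate number as a block, the mean of all probes, and leaving out each array. Replicate numbers paired the arrays in DB#1 against M alone, as a hint from the data and not from the labels (correlations of same-numbered deviations 0.655, 0.567 and 0.911). Fits without D replicate 3 were added after seeing the data. Figures used matplotlib 3.10.9.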

Additional observations from a re-analysis of the deposited data

Results flagged for a closer look

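In 2 members every D array lay below every M array while every J365 array lay above every M0 array. Of all genes tested, 4.58% lay below M in D and 5.42% lay above M0 in J365 without overlap. The share of all genes with both was not counted, so nothing is read from the number of genes that show it. For Oas1a, D minus M was -2.04 and J365 minus M0 was 0.64, which differ by -2.68 on the log2 scale. For Oas2 the values were -1.995 and 1.61, differing by -3.61, but the sizes rest on D arrays of which 1 of 4, replicate 3, was well above background. Without that array D minus M was -2.57, with no D array above background. The pathway genes Usp18 (-1.29 and 1.68, differing by -2.96) and Irgm1 (-0.41 and 0.45, differing by -0.86), a GTPase of the Igtp family, showed the same opposition. The difference between the 2 pairs of lines was not tested for any of these 4 genes. In the 24 sets of 4 arrays, one per member in each of D, DB#1 and M0, 0 arrays stood apart by Dixon's gap. With so few arrays per set this cannot clear an array. D replicate 3 was not flagged for Oas1g, at -1.64 against -4.34 on the next D array. A gap to the next array also cannot flag high arrays that lie close together, as for Oasl1 in D. No conclusion is drawn from this test.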

How the results depend on the processing

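The medians of the members kept their direction in all 7 comparisons under every alternative. These same arrays chose the family, and some members entered through the brighter line alone, so a kept direction is no support for it. With normexp, whose offset lifts dim signals, they shrank to -0.65 for D against M, -0.47 for DB#1 against M, 0.93 for DB#2 against M, -0.57 for DB#3 against M, 0.96 for DB#2 against D and -1.34 for M against M0. With the mean of all probes, which brings in dim second probes, they were -0.46 for D against M, -0.77 for DB#1 against M, 1.85 for DB#2 against D and -2.19 for M against M0. Without scaling DB#2 against M was 1.65, where the median of all genes tested moved from 0.02 to 0.25. Leaving out 1 array at a time gave medians of -1.81 to -1.24 for D against M and -1.03 to -0.84 for DB#1 against M. It gave 1.21 to 1.52 for DB#2 against M and -1.41 to -1.15 for DB#3 against M. The -1.81 came without D replicate 3, where Oas1g, Oas2 and Oasl2 were at background in D. For DB#2 against D the lowest was 2.39. The highest is the Oas2 difference without D replicate 3, when no D array measured that gene, and is not given.

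Counts of pathway genes moved more. For D against M the count of 11 became 7 with normexp, 6 without scaling, 6 without the filter, 1 with only the arrays of the 2 lines and 19 with slide as a block. For DB#1 against M the 7 became 11 with the percentile over detected probes, 4 without the filter, 11 with only the arrays of the 2 lines and 16 with slide as a block. For DB#2 against M the 9 became 17 without scaling, and for DB#3 against M the 11 became 7 with quantile scaling and 6 with only the arrays of the 2 lines. For DB#2 against D the 24 became 9 with only the arrays of the 2 lines. For J365 against M0 the 1 became 2 with normexp, quantile scaling or the percentile over detected probes, 3 with slide as a block and 3 in the fit without D replicate 3. Leaving out 1 array gave 4 to 14 for D against M, 3 to 6 for DB#1 against M, 7 to 12 for DB#3 against M and 20 to 26 for DB#2 against D. The causes of these moves were not tested.

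Outside DB#1 against M, arrays with equal replicate numbers did not deviate together throughout (correlations from -0.793 to 0.852), so the numbers were not taken as pairs there. With the replicate block, which leaves out the 2 unnumbered arrays, D against M had 7 called pathway genes and no other count moved by over 1.5 times. The number of arrays, 3 or 4 per line, and signals near background for Oas2, Oas3, Oasl1 and Oasl2 in melanoma lines limit the precision.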
